A study of Mus musculus with 4 samples.

Results

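Ribosome footprints were examined on 31 mouse genes that make cholesterol and fatty acids, out of 20716 genes in the deposited table. The genes were chosen by name, as the enzymes of the 2 pathways with their main regulators. They comprise 18 enzymes of the sterol branch, 8 enzymes of the fatty acid branch, 4 proteins that sense or respond to sterol (Srebf1, Srebf2, Scap and Insig1) and the sterol carrier Stard4. Ribosome profiling sequences the footprints that ribosomes shield from nuclease while they translate, so a gene's footprint count depends on the amount of its mRNA and on how densely ribosomes occupy it. There were 4 groups with 1 library each, all on a C57BL/6 background: Mettl3-KO embryoid bodies (KO EBs), wild-type embryoid bodies (WT EBs), Mettl3-KO embryonic stem cells (KO ESCs) and wild-type embryonic stem cells (WT ESCs). Mettl3 is the catalytic subunit of the enzyme that writes N6-methyladenosine on mRNA. The ESCs were held in the naive state in serum-free N2B27 medium with LIF and the inhibitors CHIR99021 and PD0325901, while the EBs, suspended aggregates of differentiating cells, grew in medium with serum for 8 to 21 days. Differentiation and the change of medium therefore cannot be told apart, nor can loss of Mettl3 and a difference between cell lines or libraries. How the Mettl3 gene was altered, how many clones were used and the day of each EB library are not stated in the labels.

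Cells make cholesterol from acetyl-CoA. The mevalonate steps build isoprenoid units, the next enzymes join them into squalene and close it to lanosterol, and a last set trims lanosterol to cholesterol. Fatty acid synthesis draws on the same acetyl-CoA: Acaca makes malonyl-CoA, Fasn assembles palmitate, Elovl6 lengthens it, and the desaturases Scd1 and Scd2 add a double bond. Most of these genes are targets of the SREBP transcription factors, encoded by Srebf1 and Srebf2. SREBPs are held in the endoplasmic reticulum with Scap by Insig proteins when sterol is plentiful and are released to be cleaved when it is scarce.

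The libraries held 4075850 reads on genes in KO EBs, 4234361 in WT EBs, 11455539 in KO ESCs and 8570204 in WT ESCs. After the authors' normalisation 1 read was worth 1.49 in KO EBs, 1.56 in WT EBs, 0.533 in KO ESCs and 0.778 in WT ESCs. With no replicates, no difference between libraries has a check against replicate spread. Intervals in parentheses after a ratio are 95% exact intervals that cover counting error only. Log2 ratios were taken of the normalised count + 1. Genes whose 4 libraries averaged 25 or more were tested, 9670 in all, and a gene was called where 2 libraries stood 2-fold or further apart. Mettl3 itself stood at 327 in KO EBs, 429 in WT EBs, 298 in KO ESCs and 563 in WT ESCs, so counts over its whole coding sequence do not check the knockout. Of the markers of the labelled cultures, 9 visceral endoderm genes summed to 1576 in KO EBs, 45537 in WT EBs, 145.6 in KO ESCs and 165.0 in WT ESCs, so both EB libraries stood above both ESC libraries. A set of 8 pluripotency genes, Pou5f1 and Sox2 among them, summed to 18799 in KO EBs, 12465 in WT EBs, 15686 in KO ESCs and 24359.5 in WT ESCs. On this sum WT EBs stood below WT ESCs but KO EBs did not stand below KO ESCs. By gene, all 6 that passed the filter were lower in WT EBs than in WT ESCs. In KO EBs 4 were higher than in KO ESCs and 2 lower, namely Klf4 (1088 against 1705) and Tfcp2l1 (1620 against 2741). Among the 8 pluripotency genes Tbx3 was listed at 0 in every library and Esrrb had a value of at most 11.9. Of 3 epiblast markers Otx2 and Dnmt3b were listed at 0 in every library. The third, Fgf5, stood at 2.99 in KO EBs, 84.2 in WT EBs, 0 in KO ESCs and 0.778 in WT ESCs. It had 54 reads in WT EBs and did not pass the filter. Of 5 fibroblast and mesenchyme markers, which summed to 6004 in KO EBs, 720.0 in WT EBs, 1362 in KO ESCs and 264.6 in WT ESCs, Pdgfra was listed at 0 everywhere. Tbx3, Esrrb, Otx2, Dnmt3b and Pdgfra are each listed as several coding sequences that share all but 60 bases or fewer of any entry, and reads in shared bases were not counted for a gene, so these low values are no sign that the genes were not translated. The EB libraries thus differ in markers of cell makeup, and in a bulk library fewer cells of a type and less RNA per cell cannot be told apart. The part of cell makeup in the differences described here was not tested.

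Of the 31 genes 27 passed the filter. Acly, which cleaves citrate to acetyl-CoA, and Scap had 0 reads in every library. Each is listed as 2 coding sequences, and Scap's 2 entries overlap over all of their 3831 bases, while Acly's longer entry has 30 of 3306 bases to itself. The table counts reads that match more than 1 entry as ambiguous, so these zeros give no information on translation. Fdps, which makes farnesyl diphosphate, kept 201 of 1263 bases and had 8 reads in KO EBs, 5 in WT EBs, 43 in KO ESCs and 25 in WT ESCs. The NADPH-producing malic enzyme Me1 kept 78 of 1719 bases in the entry that held its reads and had 6, 17, 20 and 14 reads in that order. Neither passed the filter. Pmvk also has 2 entries, passed with a mean of 48.8, and rested on 95 of 579 bases.

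A different loss affects genes with copies elsewhere in the genome, since reads without a unique place were left out. The chromosomes of GRCm38.p6 were searched for copies of all 28-nt stretches of the members' coding sequences. No stretch had a copy for 20 genes, and at least 10% of stretches did for 10. The largest shares were 86.2% for Idi1, 78.9% for Fdps, 77.8% for Acaca, 70.2% for Me1 and 70.0% for Acat2, followed by 52.9% for Fdft1, 48.8% for Elovl6, 37.5% for Scd1 and 30.8% for Scd2. Ratios between libraries are taken within a gene, but levels of these genes are understated.

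Levels were compared between genes per kilobase of coding sequence, over the 26 members that pass and have 1 entry. The desaturase Scd2 was the highest on the mean of the 4 libraries, with a normalised count per kilobase of 1062 in KO EBs, 803 in WT EBs, 2495 in KO ESCs and 2938 in WT ESCs. Hmgcs1, which condenses acetoacetyl-CoA and acetyl-CoA to HMG-CoA, came next at 951 in KO EBs, 1690.2 in WT EBs, 1731 in KO ESCs and 2228 in WT ESCs. The ranking thus differs by culture: Scd2 led in both ESC libraries, Ebp in KO EBs and Hmgcs1 in WT EBs. Msmo1 and Ebp, which act between lanosterol and cholesterol, followed with means of 1409 and 1293 per kilobase. Fasn has the highest total of all 31 but ranked 10th per kilobase, at 536 in KO EBs, 583 in WT EBs, 1045 in KO ESCs and 1064 in WT ESCs. Srebf2, at a mean of 886 per kilobase, exceeded Srebf1, at 434, and did so in each library. At the low end stood Idi1 (39.8) and Acaca (41.2), whose coding sequences are mostly copied elsewhere. Among genes with no copied stretch the lowest were Acss2 (189.9) and Hsd17b7 (194).

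**Figure D1:**
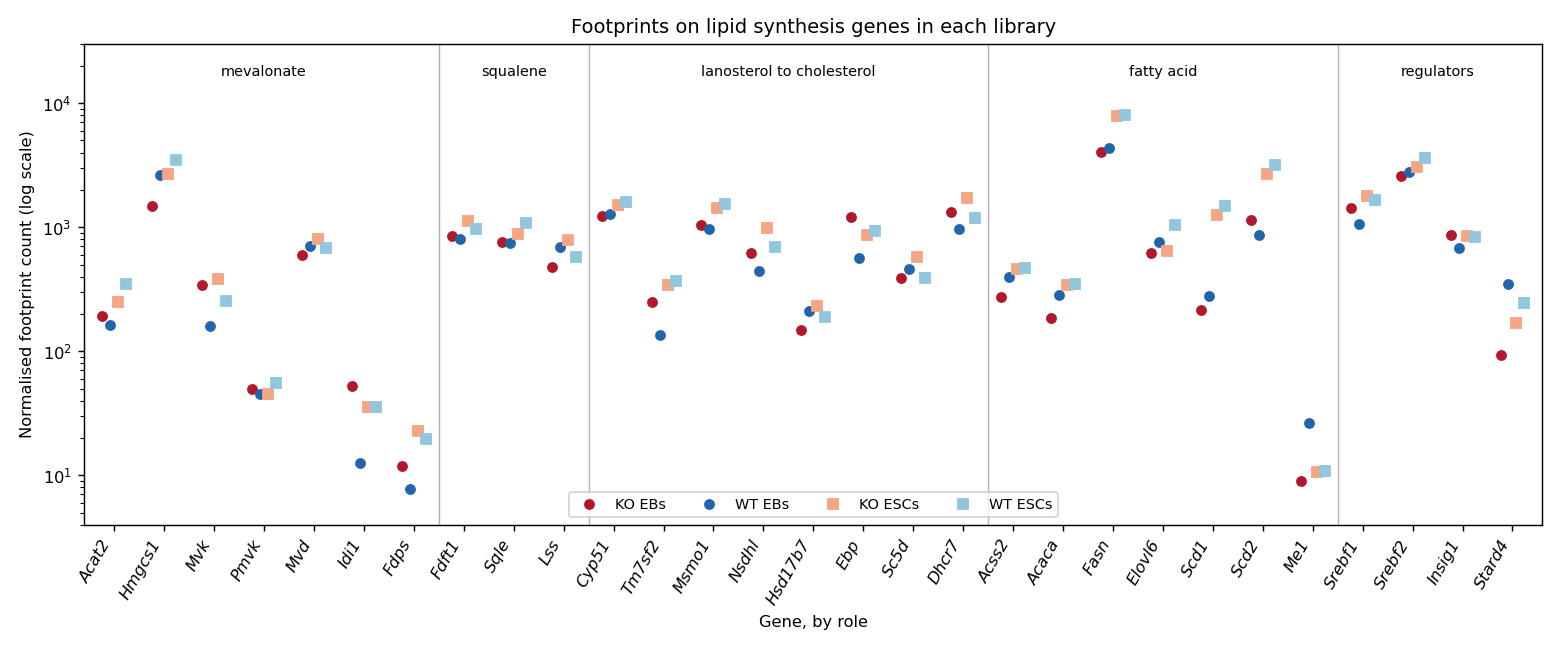
Normalised footprint count (log scale) of each gene in the 4 libraries, ordered by role; each symbol is 1 library, and Acly and Scap, at 0 in every library, are not drawn. Scd1 and Scd2 lie lower in both EB libraries than in both ESC libraries, while most sterol enzymes lie within 2-fold.

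RefSeq promoter windows on GRCm38.p6, from 250 bases before to 50 after a gene's start, were found for 25 of the 31 genes. They show how fixed letter forms of the elements bound by SREBPs and their partner NF-Y are spread over the set. They were searched on both strands for the sterol regulatory element TCACNCCAC, the CCAAT box CCAAT, which NF-Y binds, and the E box CACGTG; a gene with several windows counted if any held the motif. This form of the sterol regulatory element was found for 1 of 25 genes, Hmgcs1, against 1.44% of 27025 genes. Other forms were not searched, so the other promoters cannot be said to lack such an element. A CCAAT box was found for 21 of 25 genes, 14 of 15 sterol enzymes, 4 of 6 fatty acid enzymes and 3 of 4 regulators, against 41.1% of all genes. An E box was found for 5 of 25 (Dhcr7, Hsd17b7, Sc5d, Insig1 and Scap), against 8.09%. These matches are descriptions of letters, not of binding. Windows are printed for Hmgcs1, which holds the sterol regulatory element, for Ebp and Tm7sf2, sterol enzymes that stand apart in the EB comparisons, for Fasn, and for Insig1 with its E box. They run 5′ to 3′ on the gene's strand, with motif matches on either strand in capitals; in Fasn 2 CCAAT matches on opposite strands overlap. The start used for the Fasn window lies inside the outer bounds of the gene, whose annotation has more than 1 start. They lie at chr13:119690101-119690400 (+ strand), chrX:8193463-8193762 (− strand), chr19:6067801-6068100 (− strand), chr11:120824498-120824797 (− strand) and chr5:28071162-28071461 (+ strand).
Hmgcs1: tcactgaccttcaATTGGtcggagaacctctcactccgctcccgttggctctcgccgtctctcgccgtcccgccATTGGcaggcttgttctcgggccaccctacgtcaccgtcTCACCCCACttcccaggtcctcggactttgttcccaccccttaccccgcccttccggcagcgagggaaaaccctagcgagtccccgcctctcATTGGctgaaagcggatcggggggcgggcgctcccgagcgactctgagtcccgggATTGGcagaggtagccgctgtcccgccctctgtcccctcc
Ebp: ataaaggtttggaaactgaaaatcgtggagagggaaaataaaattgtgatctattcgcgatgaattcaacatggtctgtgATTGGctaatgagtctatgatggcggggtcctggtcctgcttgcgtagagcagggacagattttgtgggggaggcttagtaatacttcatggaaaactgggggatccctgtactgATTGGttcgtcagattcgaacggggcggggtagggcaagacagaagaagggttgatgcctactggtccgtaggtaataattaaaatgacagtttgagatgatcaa
Tm7sf2: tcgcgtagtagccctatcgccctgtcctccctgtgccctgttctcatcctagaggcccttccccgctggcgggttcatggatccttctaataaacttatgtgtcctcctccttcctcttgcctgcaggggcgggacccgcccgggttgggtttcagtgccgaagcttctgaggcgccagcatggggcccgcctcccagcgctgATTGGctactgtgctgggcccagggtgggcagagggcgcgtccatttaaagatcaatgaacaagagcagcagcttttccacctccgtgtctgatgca
Fasn: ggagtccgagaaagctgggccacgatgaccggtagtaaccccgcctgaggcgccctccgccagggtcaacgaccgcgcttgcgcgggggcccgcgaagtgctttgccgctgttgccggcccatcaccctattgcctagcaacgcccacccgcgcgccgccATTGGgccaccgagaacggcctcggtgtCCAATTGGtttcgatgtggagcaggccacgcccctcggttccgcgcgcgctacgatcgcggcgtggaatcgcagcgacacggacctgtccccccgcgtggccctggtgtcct
Insig1: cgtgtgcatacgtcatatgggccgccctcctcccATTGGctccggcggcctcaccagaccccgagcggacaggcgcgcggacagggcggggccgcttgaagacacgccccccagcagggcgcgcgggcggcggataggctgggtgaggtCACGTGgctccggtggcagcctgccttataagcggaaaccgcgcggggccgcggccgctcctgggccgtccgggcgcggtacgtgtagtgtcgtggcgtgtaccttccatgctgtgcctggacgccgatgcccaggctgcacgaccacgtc

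EBs were first set against the ESCs of the same genotype. In either genotype the median EB over ESC ratio was lower for fatty acid enzymes than for sterol enzymes, and the desaturases Scd1 and Scd2 had the lowest ratios of all 27 genes. The median log2 ratio of the 6 fatty acid enzymes tested was −0.92 in KO EBs over KO ESCs and −0.65 in WT EBs over WT ESCs, with all 6 below 0 in each. The 17 sterol enzymes tested had medians of −0.39 in KO and −0.40 in WT, with 14 and 13 below 0. Over all genes tested the medians were −0.08 and −0.02. At least 2-fold lower were 2 of the 27 genes in KO EBs, where 6.65% of all genes were, and 5 of 27 in WT EBs, where 8.25% were. The KO share is near its background, and the WT share over the 27 genes is above it. Among the 18 members with 1 entry and under 10% of stretches copied, 1 was called lower in WT, which is not above the background. At least 2-fold higher were 0 of 27 in either genotype, where 9.31% of all genes in KO and 11.0% in WT were.

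Scd1, on chromosome 19 (44394450 to 44407709 on GRCm38.p6, the build of all positions given), encodes a stearoyl-CoA desaturase, which makes oleate and palmitoleate. Its normalised count was 213 in KO EBs, 281 in WT EBs, 1251 in KO ESCs and 1493 in WT ESCs. It was 5.86-fold lower (4.95 to 6.99) in KO EBs than in KO ESCs and 5.32-fold lower (4.57 to 6.23) in WT EBs than in WT ESCs. Each EB library thus lay below each ESC library by more than 4-fold. Its neighbour Scd2 (chromosome 19, 44293676 to 44306864) stood at 1143 in KO EBs, 865 in WT EBs, 2687 in KO ESCs and 3165 in WT ESCs. The EB libraries were again the lower ones, 2.35-fold lower (2.18 to 2.54) in KO and 3.66-fold lower (3.35 to 4.01) in WT. Since 37.5% and 30.8% of their stretches are copied elsewhere, these values rest on the rest of each gene.

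Fasn, the multifunctional synthase that makes palmitate (chromosome 11, 120805958 to 120825166), stood at 4026 in KO EBs, 4383 in WT EBs, 7849.6 in KO ESCs and 7994 in WT ESCs. Just under 2-fold in each genotype, it was 1.95-fold lower (1.87 to 2.03) in KO EBs and 1.82-fold lower (1.75 to 1.90) in WT EBs. These values rest on 2697 reads in KO EBs, 2812 in WT EBs, 14715 in KO ESCs and 10271 in WT ESCs. Acaca, the carboxylase that commits acetyl-CoA to fatty acids, was 1.85-fold lower (1.52 to 2.26) in KO EBs and 1.22-fold lower (1.03 to 1.46) in WT EBs. Acss2, which makes acetyl-CoA from acetate, was 1.67-fold lower (1.43 to 1.97) and 1.19-fold lower (1.02 to 1.38) in the same order. Elovl6, which extends palmitate, was 1.04-fold lower (0.934 to 1.17) in KO EBs, an interval that includes 1, and 1.36-fold lower (1.22 to 1.51) in WT EBs.

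In the sterol branch Tm7sf2, a sterol reductase that acts after Cyp51, had the lowest WT ratio after Idi1. It stood at 249 in KO EBs, 136 in WT EBs, 343 in KO ESCs and 367 in WT ESCs, and was 1.38-fold lower (1.16 to 1.64) in KO EBs and 2.70-fold lower (2.15 to 3.44) in WT EBs. The WT EB library stood below the other 3. Acat2, the cytosolic thiolase that makes acetoacetyl-CoA, stood at 193 in KO EBs, 162 in WT EBs, 249.7 in KO ESCs and 346 in WT ESCs, and was 1.30-fold lower (1.06 to 1.59) in KO EBs and 2.13-fold lower (1.72 to 2.67) in WT EBs. Idi1, which isomerises isopentenyl diphosphate, was 1.48-fold higher (0.956 to 2.27) in KO EBs and 2.87-fold lower (1.34 to 7.04) in WT EBs, on 35 reads in KO EBs and 8 in WT EBs. Hmgcs1 was 1.82-fold lower (1.70 to 1.95) in KO EBs and 1.32-fold lower (1.25 to 1.40) in WT EBs. Hmgcs1 thus stood lower in EBs of either genotype. The lanosterol demethylase Cyp51 was 1.23-fold lower (1.14 to 1.33) in KO EBs and 1.27-fold lower (1.17 to 1.38) in WT EBs. The squalene epoxidase Sqle was 1.16-fold lower (1.05 to 1.29) in KO EBs and 1.46-fold lower (1.32 to 1.63) in WT EBs, and squalene synthase Fdft1 1.31-fold lower (1.19 to 1.44) in KO EBs and 1.20-fold lower (1.08 to 1.33) in WT EBs. All 3 stayed within 2-fold in each genotype. Leaving aside Ebp, described further on, the log2 ratios of the other sterol enzymes ran from −0.72 (Lss) to 0.12 (Pmvk) in KO and from −0.67 (Msmo1) to 0.26 (Lss) in WT.

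Among the regulators Srebf2, the SREBP linked mainly to sterol genes, was 1.17-fold lower (1.11 to 1.23) in KO EBs and 1.30-fold lower (1.23 to 1.37) in WT EBs. Srebf1, linked mainly to fatty acid genes, was 1.23-fold lower (1.14 to 1.32) in KO EBs and 1.56-fold lower (1.43 to 1.70) in WT EBs. Insig1, itself a target of SREBPs, was 1.02-fold higher (0.922 to 1.12) in KO EBs and 1.24-fold lower (1.10 to 1.38) in WT EBs. Each of these 3 was within 2-fold.

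**Figure D2:**
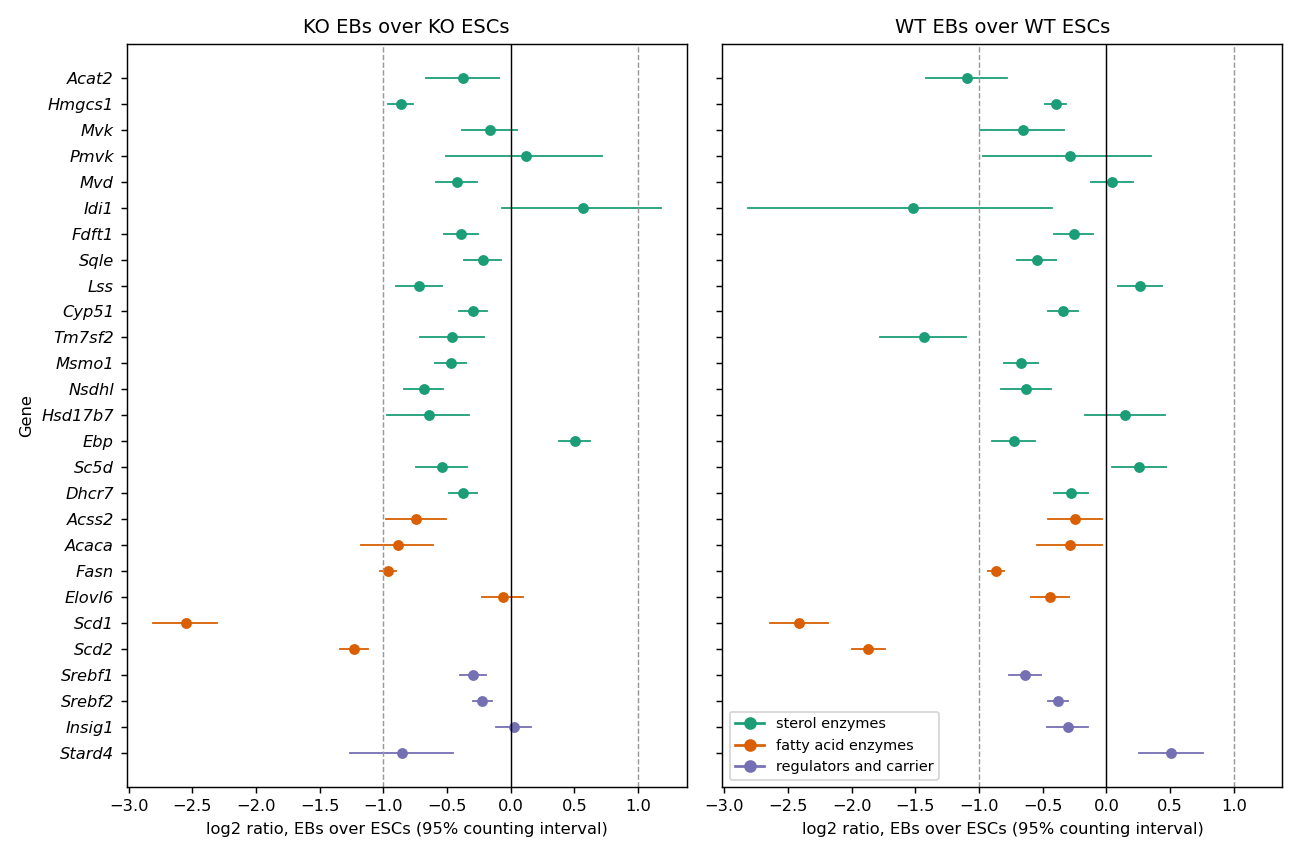
Log2 ratio of EBs over ESCs for the 27 genes tested, KO on the left and WT on the right, with 95% counting intervals as bars; dashed lines mark 2-fold, and ratios are drawn with no pseudocount. Scd1 and Scd2 lie beyond the lower dashed line in both panels, and the other 4 fatty acid enzymes lie between it and 0.

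Recovered reads of the 4 libraries also entered a count model with stage and genotype as terms, which leaves 1 residual degree of freedom and treats any stage by genotype difference as noise. For EBs over ESCs, edgeR's quasi-likelihood test with Benjamini-Hochberg adjustment called 1 of the 27 genes lower, Scd1 (log2 −2.46, adjusted p = 0.033), and 0 higher, where 0.0517% and 0.207% of 9670 genes were called. DESeq2 called 2 lower, Scd1 (adjusted p = 1.58e-08) and Scd2 (adjusted p = 0.00117), and 0 higher, where 1.04% and 2.83% of genes were. By edgeR Scd2 had an adjusted p of 0.105. For KO over WT neither tool called any of the 27 genes. For that term edgeR called 0.00% of all genes in either direction, although 1556 had an unadjusted p below 0.05, whereas DESeq2 called 2.60% higher and 0.734% lower. At an unadjusted p below 0.05 for KO over WT edgeR had 2 of the 27 genes, where 1556 of all 9670 genes were. DESeq2 had 1 of the 27, where 1337 of all 9670 were. Both shares are below those of all genes.

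KO EBs were next set against WT EBs. Sterol enzymes stood on either side, and 5 of the 6 fatty acid enzymes tested were lower in KO EBs. The median log2 ratio was 0.11 for the 17 sterol enzymes (11 above 0), −0.35 for the 6 fatty acid enzymes (5 below 0) and −0.07 over all genes. At least 2-fold higher in KO EBs were 3 of 27 genes (Idi1, Ebp and Mvk), where 15.2% of all genes were, and at least 2-fold lower 1 of 27 (Stard4), where 12.2% were. Both shares are below the background of the comparison. In the same comparison 9 of 9 visceral endoderm markers were called lower in KO EBs (median −4.32) and 4 of 4 fibroblast and mesenchyme markers tested called higher, and their part in the values of these genes was not tested.

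Stard4, which carries cholesterol between membranes, was the only gene of the 27 called lower. It stood at 94.0 in KO EBs, 346 in WT EBs, 169.6 in KO ESCs and 244 in WT ESCs, and was 3.68-fold lower (2.77 to 4.95) in KO EBs than in WT EBs. The KO EB library was the lowest of the 4 and the WT EB library the highest. Ebp, the isomerase that shifts the sterol ring double bond (chromosome X, 8185329 to 8193512), stood at 1219.5 in KO EBs, 566 in WT EBs, 862 in KO ESCs and 937 in WT ESCs. It was 2.16-fold higher (1.90 to 2.45) in KO EBs, with the KO EB library the highest and the WT EB library the lowest. Mevalonate kinase, Mvk (chromosome 5, 114444264 to 114460591), stood at 340.3 in KO EBs, 161 in WT EBs, 381 in KO ESCs and 253 in WT ESCs. It was 2.12-fold higher (1.67 to 2.70) in KO EBs, and the KO library was also the higher one of the ESC pair. Idi1 stood at 52.2 in KO EBs, 12.5 in WT EBs, 35.2 in KO ESCs and 35.8 in WT ESCs and was 4.19-fold higher (1.91 to 10.5) in KO EBs, with the WT EB library alone low.

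Within the mevalonate steps Hmgcs1 went the other way to Mvk. It stood at 1487 in KO EBs, 2642 in WT EBs, 2706 in KO ESCs and 3483 in WT ESCs and was 1.78-fold lower (1.64 to 1.92) in KO EBs, the lowest of the 4 libraries. The diphosphomevalonate decarboxylase Mvd was 1.18-fold lower (1.03 to 1.35). Lss, which closes squalene epoxide to lanosterol, stood at 475 in KO EBs, 694 in WT EBs, 781 in KO ESCs and 578 in WT ESCs. It was 1.46-fold lower (1.26 to 1.69) in KO EBs, while Sqle and Fdft1 had ratios whose intervals include 1. After lanosterol, Tm7sf2 was 1.84-fold higher (1.41 to 2.41), Nsdhl, a dehydrogenase of the demethylation that follows, 1.38-fold higher (1.19 to 1.61), and Dhcr7, the last reductase before cholesterol, 1.36-fold higher (1.22 to 1.51). Hsd17b7, a ketoreductase of the same demethylation, was 1.42-fold lower (1.09 to 1.86). The intervals of Cyp51, Msmo1 and Sc5d included 1.

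Among fatty acid enzymes Acaca, at 187 in KO EBs, 284 in WT EBs, 345 in KO ESCs and 346 in WT ESCs, was 1.52-fold lower (1.20 to 1.92) in KO EBs, Acss2 1.44-fold lower (1.19 to 1.75) and Scd1 1.31-fold lower (1.05 to 1.65). Scd2 was 1.32-fold higher (1.18 to 1.48), so the 2 desaturases lay on opposite sides. Fasn was 1.09-fold lower (1.03 to 1.15). Srebf1 was 1.36-fold higher (1.23 to 1.50) and Insig1 1.28-fold higher (1.13 to 1.45), while the interval for Srebf2 included 1.

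In the ESCs no gene of the set reached 2-fold between KO and WT, 0 of 27 being called higher and 0 of 27 lower. Of all genes 10.6% were called higher and 4.42% lower. Of the 4 fibroblast and mesenchyme markers tested 4 were called higher. The log2 ratios of the 27 genes ran from −0.68 (Elovl6) to 0.59 (Mvk). The medians were −0.02 for sterol enzymes, −0.13 for fatty acid enzymes and −0.0044 for all genes. The sterol median is the value of Idi1, and its sign is not settled: it was 0.09 with no filter, 0.21 with a mean of at least 100, 0.10 with libraries scaled to an equal total and 0.23 over members with 1 entry and under 10% of stretches copied. Scaling the libraries to an equal total of gene reads shifted the all-gene median by 0.13 here and by 0.12 between the EBs. Under it 8 genes near 0 in ESCs (Idi1, Cyp51, Tm7sf2, Msmo1, Ebp, Acss2, Acaca and Fasn) changed sign, as did Cyp51 and Srebf2 between the EBs, and TMM scaling turned Mvd in WT EBs over WT ESCs.

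The enzymes with the highest KO ratios in ESCs were Mvk, 1.51-fold higher (1.32 to 1.72), and 4 that act after squalene: Sc5d, a desaturase of the sterol ring, 1.47-fold higher (1.32 to 1.64), Dhcr7, 1.45-fold higher (1.36 to 1.54), Nsdhl, 1.43-fold higher (1.32 to 1.56), and Lss, 1.35-fold higher (1.24 to 1.48). Of these Mvk, Nsdhl and Dhcr7 were also higher in KO EBs than in WT EBs, while Lss was lower. The lowest KO ratios in ESCs were those of Elovl6, which stood at 619 in KO EBs, 764 in WT EBs, 647 in KO ESCs and 1038 in WT ESCs and was 1.60-fold lower (1.48 to 1.74), Stard4, 1.44-fold lower (1.22 to 1.68), Acat2, 1.38-fold lower (1.21 to 1.58), Hmgcs1, 1.29-fold lower (1.24 to 1.34), and Sqle, 1.23-fold lower (1.14 to 1.32). Stard4, Elovl6 and Hmgcs1 were lower in KO at either stage. Fasn was 1.02-fold lower (0.993 to 1.04) in KO ESCs, with an interval that includes 1. Dhcr7 stood at 1315 in KO EBs, 969 in WT EBs, 1704 in KO ESCs and 1176 in WT ESCs, with the KO library the higher one at each stage.

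**Figure D3:**
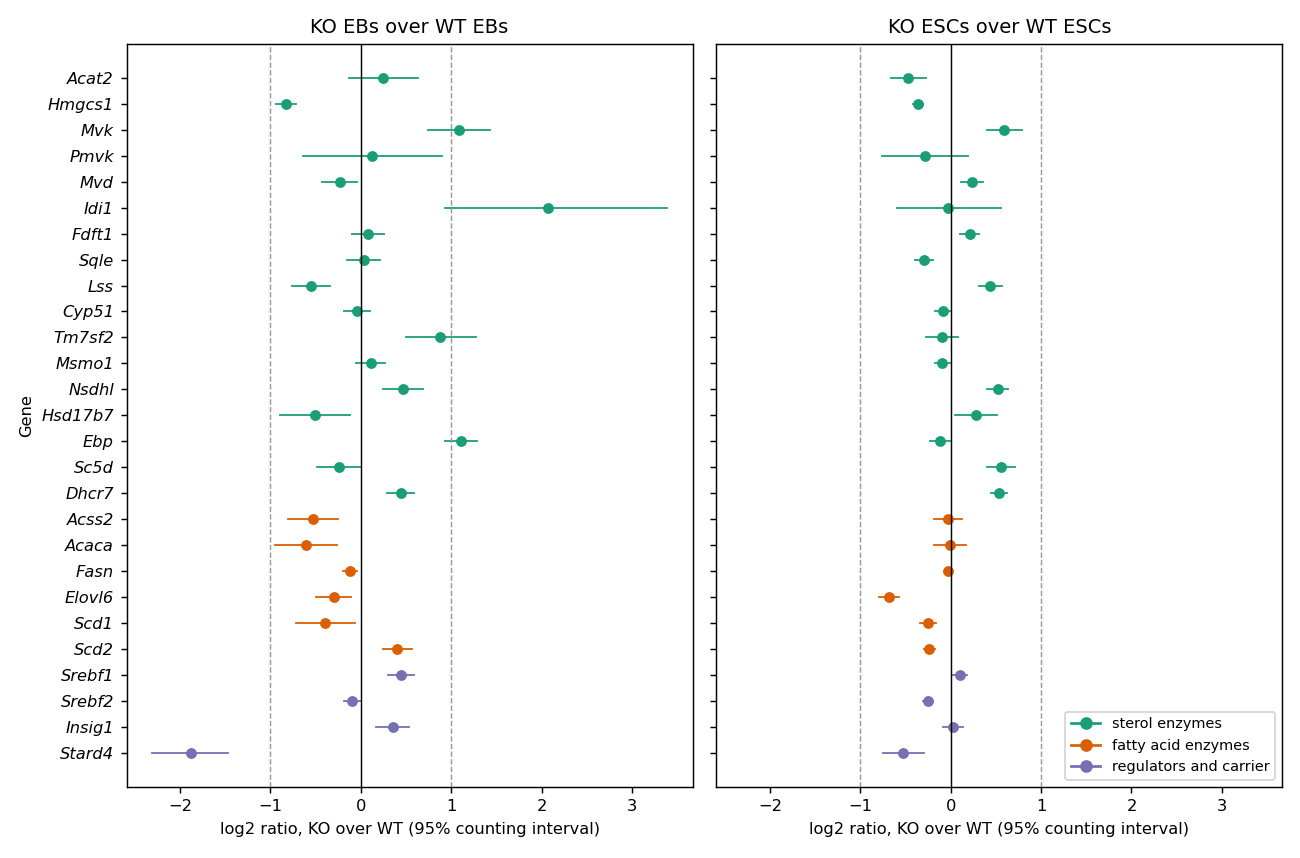
Log2 ratio of KO over WT for the 27 genes tested, EBs on the left and ESCs on the right, with 95% counting intervals as bars; dashed lines mark 2-fold, and ratios are drawn with no pseudocount. In EBs Idi1, Ebp and Mvk lie beyond the upper dashed line and Stard4 beyond the lower one, while in ESCs all 27 lie between the lines.

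The reads of each step were also summed and given as RPM, reads per 1000000 reads on genes. This measure is free of the authors' scaling and is weighted to the genes with the most reads, and so also to long coding sequences such as that of Fasn. The 18 sterol enzymes held 1813 RPM in KO EBs, 1666 in WT EBs, 2401 in KO ESCs and 2158 in WT ESCs, and the 8 fatty acid enzymes 1064 RPM in KO EBs, 1060.4 in WT EBs, 2168 in KO ESCs and 2176 in WT ESCs. In ESCs the counted reads of the branches were similar, and in EBs those of the sterol enzymes were more. Such sums depend on coding length and on bases lost to shared entries or copies, so they do not rank the branches by translation. Over members with 1 entry and under 10% of stretches copied, 13 sterol enzymes held 1945 RPM in WT ESCs and 2 fatty acid enzymes 1269. The ratio of EB to ESC shares was 0.491 (0.475 to 0.507) in KO and 0.487 (0.472 to 0.503) in WT for fatty acid enzymes, and 0.755 (0.736 to 0.774) and 0.772 (0.751 to 0.794) for sterol enzymes. For the middle one of all 9670 genes this ratio was 0.953 in KO and 0.994 in WT. Scd1 and Scd2 together held 223 RPM in KO EBs, 174 in WT EBs, 644 in KO ESCs and 698 in WT ESCs, and Fasn 662 RPM in KO EBs, 664 in WT EBs, 1285 in KO ESCs and 1198 in WT ESCs. Without these 3 genes the fatty acid enzymes had EB to ESC ratios of 0.749 (0.689 to 0.813) in KO and 0.797 (0.738 to 0.859) in WT, close to those of the sterol enzymes.

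By step, the KO libraries held more summed reads after lanosterol, with or without Ebp, although single enzymes of that step lay on either side. The direction of the summed reads on the mevalonate steps depended on Hmgcs1. The 8 enzymes from lanosterol to cholesterol held 1021 RPM in KO EBs, 761 in WT EBs, 1253 in KO ESCs and 1033 in WT ESCs, a ratio of KO to WT of 1.34 (1.28 to 1.41) in EBs and 1.21 (1.18 to 1.25) in ESCs. Without Ebp the ratio was 1.22 (1.16 to 1.28) in EBs and 1.25 (1.21 to 1.28) in ESCs. By gene, on the authors' scaling, 5 of these 8 enzymes were above 0 in KO EBs over WT EBs (median log2 ratio 0.27). In KO ESCs over WT ESCs 4 were above 0 and 4 below (median 0.10). Those below in ESCs, Cyp51, Tm7sf2, Msmo1 and Ebp, changed sign with libraries scaled to an equal total. The 7 mevalonate enzymes held 448 RPM in KO EBs, 565 in WT EBs, 694 in KO ESCs and 730.4 in WT ESCs, a ratio of KO to WT of 0.793 (0.746 to 0.843) in EBs and 0.950 (0.919 to 0.982) in ESCs. Hmgcs1 alone provides most of those reads, 996 of 1828 in KO EBs and 1695 of 2394 in WT EBs. The other 6 mevalonate enzymes held 204 RPM in KO EBs, 165 in WT EBs, 251 in KO ESCs and 208 in WT ESCs, so that without Hmgcs1 the ratio turned to 1.24 (1.12 to 1.37) in EBs and 1.20 (1.14 to 1.28) in ESCs. Of the reads of these other 6 enzymes, Mvk provides 228 of 832 in KO EBs and 103 of 699 in WT EBs. In ESCs it provides 715 of 2874 in KO and 325 of 1785 in WT. A ratio without both Hmgcs1 and Mvk was not computed, so the turn is no sign of a general rise. By gene, 4 of the 6 mevalonate enzymes tested were above 0 in KO EBs over WT EBs, with a median log2 ratio of 0.18. In KO ESCs over WT ESCs 2 were above 0 and 4 below, with a median of −0.15. For the whole sterol branch the KO to WT ratio was 1.09 (1.05 to 1.12) in EBs and 1.11 (1.09 to 1.13) in ESCs, and for the fatty acid branch 1.00 (0.962 to 1.05) and 0.996 (0.978 to 1.02). On this measure the middle one of all 9670 genes had a KO to WT ratio of 1.03 in EBs and 1.09 in ESCs. The ratios of the whole sterol branch lie close to it, and the summed ratios after lanosterol, 1.34 and 1.21, above it.

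**Figure D4:**
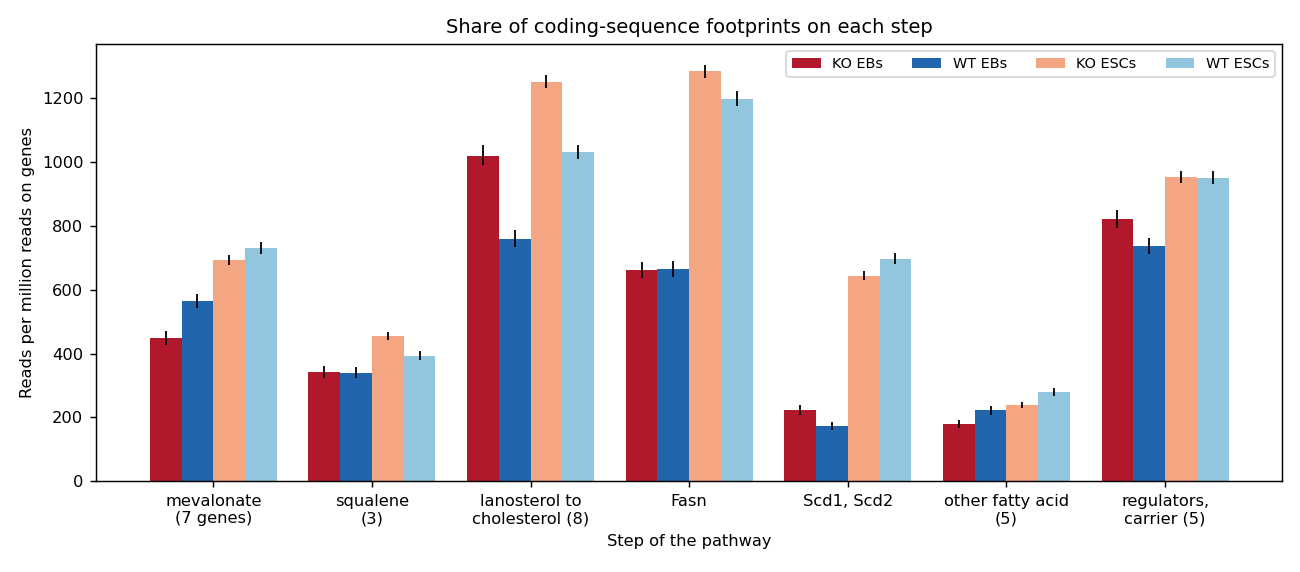
RPM (reads per 1000000 reads on genes) for each step of the pathways in the 4 libraries, with exact 95% binomial intervals (counting error only) as error bars. Fasn and the Scd1 and Scd2 pair hold smaller shares in both EB libraries than in both ESC libraries, and the step after lanosterol holds larger shares in KO than in WT at either stage.

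Subtracting the log2 EB over ESC ratio of WT from that of KO gave a value that was at least 1 for 2 of 27 genes and at most −1 for 1, where 11.4% and 12.5% of all genes were. It was 2.01 for Idi1, with a counting standard error of 0.63, 1.23 for Ebp (0.11) and −1.35 for Stard4 (0.24). Ebp was 1.42-fold higher (1.30 to 1.54) in KO EBs than in KO ESCs, and 1.66-fold lower (1.47 to 1.87) in WT EBs than in WT ESCs. Stard4 was 1.80-fold lower (1.37 to 2.40) in KO EBs than in KO ESCs, and 1.42-fold higher (1.19 to 1.69) in WT EBs than in WT ESCs. Just short of these limits stood Tm7sf2 at 0.97 (0.21) and Lss at −0.98 (0.12). Fasn, at −0.10 (0.04), and Scd1, at −0.14 (0.17), lay near 0, and Scd2 at 0.64 (0.09). The branch medians, of which the sterol one turned to −0.05 with a mean of at least 100, were 0.05 for sterol and −0.12 for fatty acid enzymes, against −0.08 for all genes.

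Related lists are given beside the background, which for KO EBs over WT EBs was 15.2% of all genes called higher and 12.2% lower. Each count of called genes is 4 or fewer. In KO EBs over WT EBs the list of other SREBP targets had 2 of 10 tested genes called higher and 1 called lower (median 0.42). Acacb, the carboxylase at mitochondria that makes the malonyl-CoA restraining fatty acid oxidation, stood at 1314 in KO EBs, 217 in WT EBs, 2159 in KO ESCs and 812 in WT ESCs. It was 6.06-fold higher (5.06 to 7.30) in KO EBs. The KO library was the higher one in ESCs too, where Acacb was 2.66-fold higher (2.48 to 2.85) in KO ESCs than in WT ESCs. Genes of sterol uptake, storage and export had 4 of 12 tested genes called higher and 1 called lower (median 0.18). The cholesterol exporter Abca1 stood at 1218 in KO EBs, 351 in WT EBs, 571 in KO ESCs and 1129 in WT ESCs, 3.47-fold higher (2.99 to 4.04) in KO EBs. Soat1, which esterifies cholesterol for storage, stood at 1037 in KO EBs, 2748 in WT EBs, 358 in KO ESCs and 399 in WT ESCs, 2.65-fold lower (2.42 to 2.90) in KO EBs and 6.89-fold higher (6.25 to 7.62) in WT EBs than in WT ESCs.

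Glycerolipid synthesis, which uses the fatty acids made, had 1 of 11 tested genes called higher and 3 called lower (median −0.32) in KO EBs over WT EBs and 4 of 11 tested genes called higher and 0 called lower (median 0.81) in WT EBs over WT ESCs, where 11.0% of all genes were called higher and 8.25% lower. Dgat2, which completes triglyceride, stood at 38.8 in KO EBs, 237 in WT EBs, 79.5 in KO ESCs and 56.8 in WT ESCs, 6.10-fold lower (4.01 to 9.64) in KO EBs. Fatty acid oxidation had 0 of 18 tested genes called higher and 3 called lower (median −0.28) in KO EBs over WT EBs; Ehhadh, a peroxisomal enzyme, was 2.93-fold lower (2.35 to 3.68) and Acaa2, a mitochondrial thiolase, 2.51-fold lower (2.14 to 2.95). In the same comparison desaturation and elongation had 0 of 12 tested genes called higher and 0 called lower (median 0.18), and SREBP regulators 2 of 10 tested genes called higher and 2 called lower (median 0.06). Supply of NADPH and citrate had 0 of 11 tested genes called higher and 1 called lower (median −0.18), and the side branches of the mevalonate pathway 1 of 13 tested genes called higher and 1 called lower (median −0.25). The part of visceral endoderm cells in the values of Soat1, Dgat2, Ehhadh and Acaa2 was not tested. Scd3, another desaturase, was 3.31-fold lower (2.11 to 5.45) in WT EBs than in WT ESCs and 1.22-fold lower (0.873 to 1.73) in KO EBs than in KO ESCs.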

How the data were processed

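Footprints from 4 libraries, 1 per group, were deposited as 1 table of 27442 RefSeq coding sequences and 5 summary entries, which were left out of library totals and tests. The submitters' processing notes name mm10 as the build, and as tools HTSeq 0.6.0, TopHat2 2.0.10, Bowtie, DESeq and CASAVA 1.8.2, without settings or strand handling. The authors deposited normalised counts, a signal equal to the reads of each entry over a factor for its library. Dividing by the smallest step gave whole numbers for 100% of the values (tolerance 0.01), which were taken as read counts. Genes held between 27.9% and 33.4% of reads in the table, reads with no unique place between 48.4% and 55.7%, and ambiguous reads between 8.62% and 10.5%. Columns were matched to libraries by name, with 0 unmatched. A RefSeq table of GRCm38.p6, the assembly of mm10, gave symbols for 27083 entries, and entries of a gene were summed.

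Ratios used a pseudocount of 1 and a mean of at least 25, and had exact conditional binomial intervals of the recovered reads (scipy 1.17.1, Python 3.11.15). edgeR 4.0.16 and DESeq2 1.42.0 (R 4.3.3) were run on the reads as alternatives and tested on simulated data. Alternatives of pseudocount (0.5 and 5), filter, scaling and entry choice were tried. The members and lists were chosen with earlier results of these data known. All 31 members are accounted for, and of each related list up to 2 highest and 2 lowest genes per comparison could be named; values of some are not reported here.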

Additional observations from a re-analysis of the deposited data

Results flagged for a closer look

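For 3 genes the change from ESCs to EBs ran in opposite directions in KO and WT with a difference of at least 1 on the log2 scale. With 1 library in each group this difference was not tested. Relative to ESCs, Idi1 was higher in KO EBs and lower in WT EBs, a difference of 2.01, on 8 reads in WT EBs. Its KO ratio of 1.48 has a counting interval of 0.956 to 2.27 that includes 1, so its direction in KO is not settled. Of its stretches 86.2% are copied elsewhere. Ebp also was higher in KO EBs and lower in WT EBs, a difference of 1.23. Stard4 was lower in KO EBs and higher in WT EBs, a difference of −1.35.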

How the results depend on the processing

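No paired analysis was possible because each group has 1 library, and for the same reason no library could be left out. Over all alternatives 158 values of branch medians and member counts stayed within their limits (the counting interval of the middle gene, or 1.5 times the count) and 7 counts moved. For medians this limit is wide, since the middle gene can be one of few reads such as Idi1, and it says little of their stability: the sterol median changed sign under 4 alternatives for KO ESCs over WT ESCs (0.09 to 0.23, against −0.02) and under 2 for the difference of EB changes (−0.05, against 0.05). With no filter on low values, Me1 entered, so that KO EBs over WT EBs had 2 genes called lower, WT EBs over WT ESCs had 1 called higher, and 2 genes had a difference of EB changes of at most −1. With a mean of at least 100, 1 gene had a difference of at least 1, since Idi1 no longer passed. An alternative chosen after seeing the data kept the 18 members with 1 entry and under 10% of 28-nt stretches copied. It left 1 gene called lower for WT EBs over WT ESCs (Tm7sf2), 0 for KO EBs over KO ESCs, and 1 with a difference of at least 1 (Ebp), because Scd1, Scd2, Acat2 and Idi1 are then left out; the fatty acid branch keeps 2 enzymes, Acss2 and Fasn. Alternatives of the shares were also chosen after seeing the data. Without Hmgcs1 the KO to WT ratio of the mevalonate shares was 1.24 in EBs and 1.20 in ESCs, opposite to that with it, and without Ebp the ratio after lanosterol was 1.22 in EBs and 1.25 in ESCs. Values of single genes stayed within their counting interval in 656 cases and moved beyond it in 19, all 19 with libraries scaled to an equal total, and 0 called values changed sign. For EBs over ESCs the count tests called fewer members lower, 1 by edgeR and 2 by DESeq2, against 2 in KO and 5 in WT by fold. Intervals cover counting error only, and depth limits Idi1, Pmvk, Fdps and Me1 most.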
